A study of Homo sapiens with 6 samples.

Results

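TXNIP, its alpha-arrestin relatives ARRDC1, ARRDC2, ARRDC3 and ARRDC4, the glucose-sensing transcription factor genes MLX, MLXIP and MLXIPL, and the thioredoxin genes TXN and TXNRD1 were examined in DLD-1 cells, a human colorectal cancer line. These are 10 of the 60483 genes listed in the deposited tables, and all 10 were among the 14900 genes tested. The list was chosen by gene family and known role around TXNIP, with the CPM and fold changes of AHR siRNA against control siRNA in these same libraries already known, and its symbols were matched to Ensembl identifiers. The differences between the groups below are therefore a description of genes picked with this comparison in view, and no p-value is given for them. The study asked which genes AHR, the ligand-activated aryl hydrocarbon receptor, regulates in colorectal cancer. DLD-1 cells grown in RPMI-1640 medium with fetal bovine serum were transfected with control siRNA (3 libraries) or with AHR siRNA (3 libraries). The sources used here state neither the time after transfection nor the siRNA sequences. The labels do not name separate cultures, so the spread behind each p-value is that of these libraries alone and could be technical.

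TXNIP encodes a protein that binds reduced thioredoxin and inhibits it, and that also promotes the removal of glucose transporters from the cell surface. Like the ARRDC proteins it is an alpha-arrestin, an adaptor that can bring ubiquitin ligases of the NEDD4 family to membrane proteins. MLXIP encodes MondoA and MLXIPL encodes ChREBP, which pair with MLX and, when sugar phosphates accumulate, bind carbohydrate response elements. These elements are pairs of E-box-like sequences with a short spacer, and the TXNIP and ARRDC4 promoters are well-known sites of such elements. Thioredoxin (TXN) reduces disulfides in other proteins, and thioredoxin reductase 1 (TXNRD1) returns it to its reduced form with NADPH.

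The sequences upstream of TXNIP and ARRDC4 are shown because MLX factors are known to act there. Both come from the RefSeq promoter table for GRCh38.p14 and are written on the strand of the gene, ending where the GENCODE 29 exons begin. Capitals mark each match to the E-box-like word CACGNG on either strand. The TXNIP stretch is chr1:145996601-145996829 on the minus strand, -250 to -22 relative to the more upstream of the RefSeq starts. The ARRDC4 stretch is chr15:97960453-97960697 on the plus strand, -250 to -6 relative to its start.
TXNIP: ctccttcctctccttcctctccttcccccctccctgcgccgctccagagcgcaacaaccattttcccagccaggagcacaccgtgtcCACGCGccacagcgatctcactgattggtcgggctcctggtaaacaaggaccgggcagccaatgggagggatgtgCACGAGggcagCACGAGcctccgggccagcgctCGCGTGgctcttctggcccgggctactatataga
ARRDC4: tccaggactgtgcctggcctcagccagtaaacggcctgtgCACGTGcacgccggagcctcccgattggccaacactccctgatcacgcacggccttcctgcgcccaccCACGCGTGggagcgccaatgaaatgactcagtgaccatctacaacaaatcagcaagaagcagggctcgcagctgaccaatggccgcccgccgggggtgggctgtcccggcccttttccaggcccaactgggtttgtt

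The TXNIP stretch held 4 CACGNG words, and the pair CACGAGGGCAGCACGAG at -88 to -72 matched a spaced form, CACGNG and CNCGNG with 5 bases between them. On either strand, this spaced form was found in 0.424% of the 35116 upstream windows of 250 bases in the table, and the single word CACGNG in 26.7%. ARRDC4 held 3 CACGNG words, of which the palindrome CACGTG at -210 to -205 was found in 6.34% of windows, and the other 2 overlapped each other. It held no match to the spaced form. Of the other members, MLX held the palindrome CACGTG at -50 to -45, ARRDC2 held 3 CACGNG words upstream of its first listed start, and ARRDC3, TXN and TXNRD1 held single words. ARRDC1, MLXIP and MLXIPL held none. TNGCGTG, the core of the xenobiotic response element to which AHR binds, lay at -56 to -50 in TXNIP, where it overlaps the last CACGNG word, and at -42 to -36 in MLX. It was found in 4.52% of all windows and in no other member. CCAAT, the box bound by NF-Y, occurred 2 times in TXNIP and 3 times in ARRDC4. ARRDC1, ARRDC2, ARRDC3, MLX, MLXIP and TXNRD1 held it too, while MLXIPL and TXN did not. At least 1 occurrence was found in 32.0% of all windows. A match shows only that these letters are present.

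Total counts ranged from 11567736 to 15037145 per library. Values are CPM (counts scaled to a common library size), and sets of 3 values are in the order of replicates 1, 2 and 3. The targeted gene, AHR, was measured at 117, 144 and 132 CPM with control siRNA against 95.8, 87.4 and 95.0 CPM with AHR siRNA. The groups did not overlap (log2 fold change -0.50, SE 0.08, edgeR adjusted p = 1.98e-05). The AHR transcript was lowered only in part, with means of 131 CPM with control siRNA and 92.7 CPM with AHR siRNA. With library totals alone its log2 fold change was -0.35. Control siRNA replicate 1 stood apart from its group: its counts differed from those of replicates 2 and 3 by a chi-square of 8.68 and 7.55 per degree of freedom, against 1.54 between replicates 2 and 3 and 3.31 to 5.46 within the AHR siRNA group. Most epithelial markers were abundant (KRT8 at 6359 and 3902 CPM, EPCAM at 742 and 622 CPM in control siRNA and AHR siRNA). Of 10 such markers tested, 6 were called lower and 1 higher, which was VIL1 at 7.47 and 33.5 CPM. CEACAM5 was low, at 1.48 and 0.414 CPM. The 12 listed summed to between 11758 and 13279 CPM with control siRNA and to between 8152 and 8472 CPM with AHR siRNA, and CDX1 and GPA33 were below 1 CPM. The part of this shift in the results below was not tested. Fibroblast, leukocyte and endothelial lists each summed to at most 7.05 CPM in any library, and DCN, LUM, PDGFRA, THY1, MS4A1 and KDR were at 0 in all libraries.

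Among the 10 members, 4 were called higher (TXNIP, ARRDC3, ARRDC4 and MLXIPL), 4 lower (ARRDC2, MLX, TXN and TXNRD1) and 2 were not called (ARRDC1 and MLXIP), at an edgeR adjusted p under 0.05. Of all 14900 tested genes 60.1% were called, 30.0% higher and 30.1% lower. Library totals alone, in place of TMM scaling, moved the median gene up by 0.15 on the log2 scale and the share of higher genes among the called ones from 49.97% to 64.7%, while the members' counts were again 4 and 4. The groups did not overlap for 8 members, against 63.7% of tested genes. Because the members were chosen with this contrast known, nothing is read from these counts. The median size of the log2 fold change was 0.55 over the members and 0.39 over all tested genes.

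**Figure D1:**
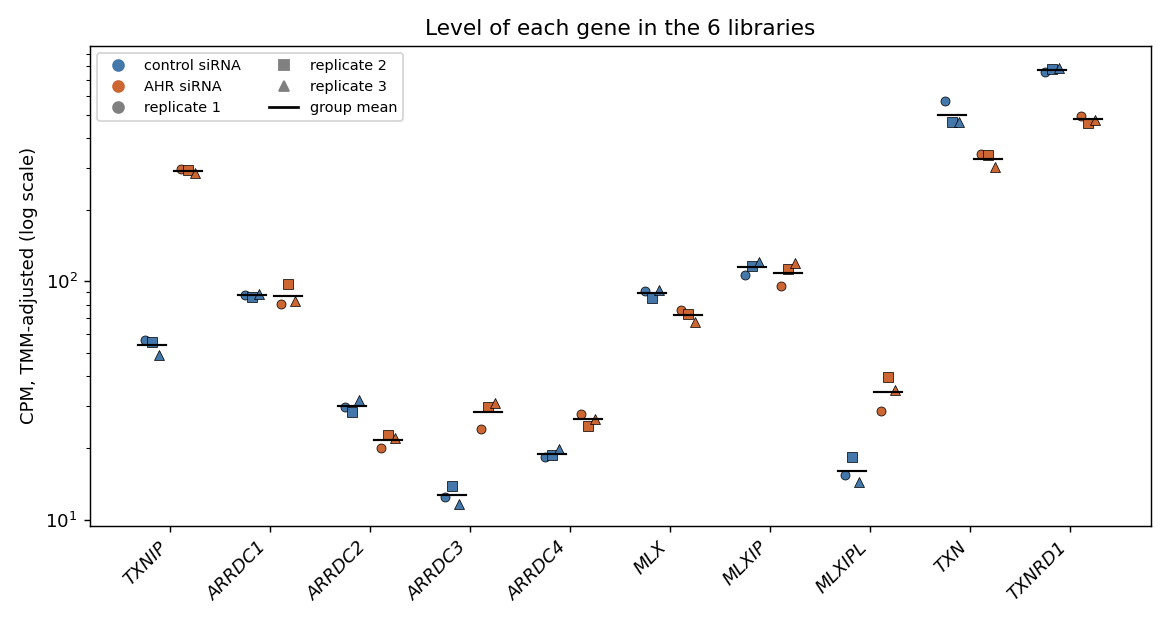
Level of each member in CPM (TMM-adjusted, log axis) in each library, with control siRNA in blue, AHR siRNA in orange, replicates by symbol shape and group means as black lines. The 3 AHR siRNA libraries of TXNIP sit between 284 and 297 CPM, above the control range of 48.9 to 56.9, and the groups overlap for ARRDC1 and MLXIP.

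TXNIP (ENSG00000265972.4, GRCh38 chromosome 1, 145992435 to 145996600, minus strand) showed the largest difference of the list. With control siRNA it stood at 56.9, 55.8 and 48.9 CPM, from 759, 809 and 636 counts. With AHR siRNA it stood at 297, 294 and 284 CPM, from 3587, 3994 and 3864 counts. The AHR siRNA libraries were close to one another and all far above every control library. The mean was 541% of control, a log2 fold change of 2.43 (SE 0.07), and 70 of the tested genes had a larger fitted rise. No other gene of GENCODE 29 overlaps TXNIP. The RNA is from bulk cultures, so more cells with the transcript and more transcript per cell cannot be told apart.

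The other alpha-arrestins differed in direction. ARRDC3, which encodes an adaptor known for the ubiquitination of beta-adrenergic receptors and integrin beta 4, stood at 12.5, 13.9 and 11.7 CPM with control siRNA against 24.0, 29.6 and 31.0 CPM with AHR siRNA. Each AHR siRNA library was above every control library, with AHR siRNA replicate 1 the lowest of its group, at 222% of control in the mean (log2 fold change 1.15, SE 0.11). The antisense gene ARRDC3-AS1, which shares 145 exonic bases with ARRDC3, went from 4, 3 and 2 counts to 22, 22 and 14 counts. No source used here states whether counting used strand, so the reads of these overlapping genes may not be told apart. ARRDC3 itself had 152 to 422 counts, and the part of the antisense gene in its value was not tested.

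ARRDC4, the closest relative of TXNIP in its known response to glucose, was 18.3, 18.7 and 19.8 CPM with control siRNA against 27.8, 24.9 and 26.6 CPM with AHR siRNA. The groups were separate, but the difference was far smaller than for TXNIP, at 139.6% of control (log2 fold change 0.48, SE 0.09). ARRDC2, an alpha-arrestin linked to receptor trafficking, went the other way, from 29.8, 28.4 and 31.9 CPM to 19.96, 22.7 and 22.1 CPM. That was 71.9% of control with separate groups (log2 fold change -0.47, SE 0.09). ARRDC1, which drives the budding of vesicles at the plasma membrane, was 87.9, 86.0 and 88.2 CPM with control siRNA against 80.3, 97.2 and 83.1 CPM with AHR siRNA. Its control libraries were nearly equal, the AHR siRNA libraries lay on both sides of them, and the log2 fold change of -0.0075 (SE 0.08) was not called and changed its sign with the scaling. On the same strand AL590627.2 shares 183 exonic bases with ARRDC1 and has no value here. ARRDC1-AS1, on the opposite strand with 29 shared exonic bases, was not called either (20.8 ± 1.80 and 23.8 ± 2.05 CPM, SD, n = 3 each; edgeR adjusted p = 0.102).

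**Figure D2:**
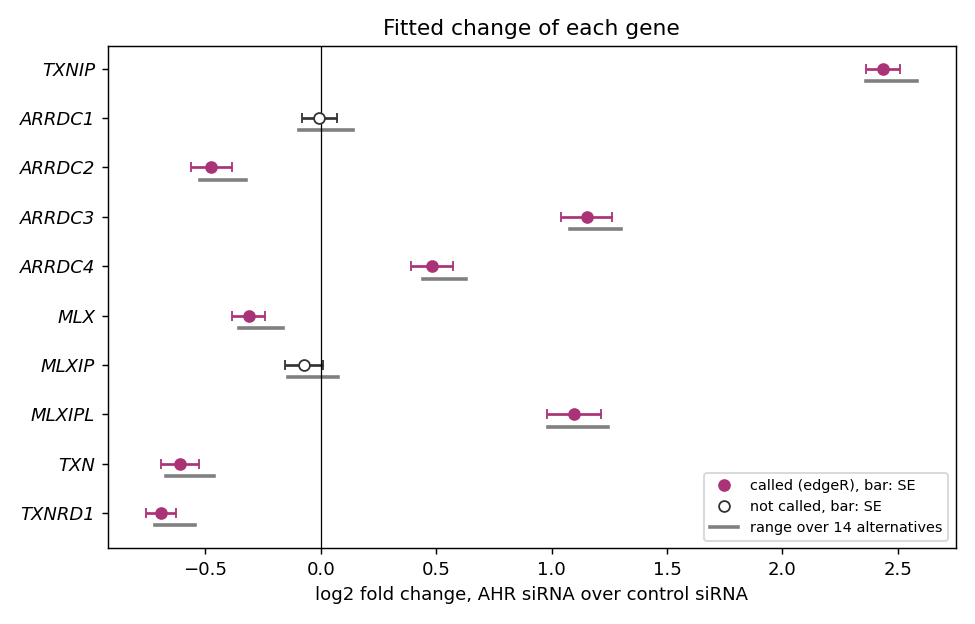
Fitted log2 fold change of AHR siRNA over control siRNA for each member, with bars for the standard error and filled points for called genes; grey lines span the values over 14 alternative settings. TXNIP lies at 2.43, and the grey lines of ARRDC1 and MLXIP cross 0.

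The MLX factors also split. MLXIPL (ChREBP) was 15.5, 18.4 and 14.5 CPM with control siRNA against 28.7, 39.6 and 35.0 CPM with AHR siRNA. All AHR siRNA libraries were higher, although they varied among themselves by a coefficient of variation of 15.9%, the widest of the 10 members in that group. The mean was 214% of control (log2 fold change 1.10, SE 0.12). MLXIP (MondoA) was 107, 116 and 121 CPM with control siRNA against 95.3, 112 and 119 CPM with AHR siRNA. The groups overlapped, with replicate 1 the lowest in each, and the log2 fold change of -0.07 (SE 0.08) was not called and changed its sign with the scaling. MLX, the shared partner, was 91.4, 85.2 and 91.7 CPM with control siRNA against 75.9, 72.8 and 67.3 CPM with AHR siRNA, or 80.5% of control (log2 fold change -0.31, SE 0.07). With library totals alone it was -0.16. MLX shares 770 exonic bases with PSMC3IP on the opposite strand, a recombination cofactor gene that was also lower (20.3 ± 2.01 and 13.4 ± 0.634 CPM, SD, n = 3 each; edgeR adjusted p = 8.30e-05). With 242 to 298 control counts against 1192 to 1234 for MLX, its part in the MLX value was not tested.

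Thioredoxin and its reductase were lower. TXN stood at 569, 465 and 465 CPM with control siRNA against 342, 338 and 302 CPM with AHR siRNA. The groups were separate, and control siRNA replicate 1, the library that stood apart, was the highest of all. At 65.5% of control the log2 fold change was -0.61 (SE 0.08), and -0.52 without control siRNA replicate 1. TXNRD1 was tight within the groups, at 753, 774 and 786 CPM against 496, 461 and 477 CPM, or 62.0% of control (log2 fold change -0.69, SE 0.07). The 7 annotated TXN pseudogenes had at most 2 counts each in any library, against 4118 to 7587 for TXN. Leaving out control siRNA replicate 1 gave 8 called members again.

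**Figure D3:**
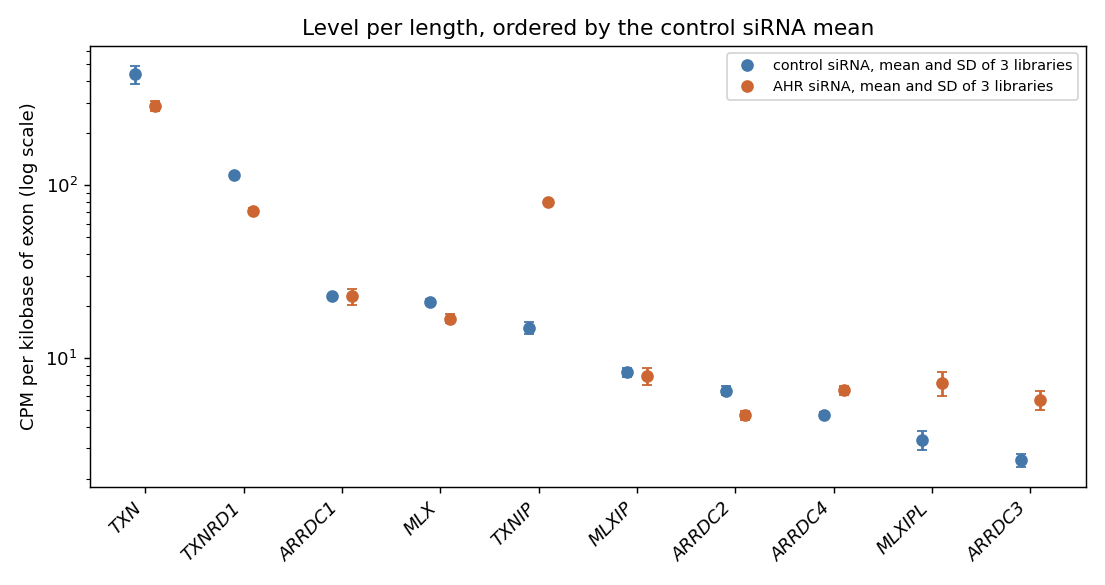
Level of each member per kilobase of exon (CPM per kilobase, log axis) as mean and SD of 3 libraries, ordered by the control siRNA mean. TXN is highest in both groups, and TXNIP is at 14.9 with control siRNA and at 80.4 with AHR siRNA.

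Levels of different genes were compared as CPM per kilobase, with the union of the annotated exons as the length. In control siRNA cells the order was TXN at 438 ± 52.6, TXNRD1 at 115 ± 2.46, ARRDC1 at 22.9 ± 0.312, MLX at 21.0 ± 0.864 and TXNIP at 14.9 ± 1.1996 CPM per kilobase (SD, n = 3 each). MLXIP followed at 8.24, ARRDC2 at 6.48, ARRDC4 at 4.65, MLXIPL at 3.35 and ARRDC3 at 2.57 CPM per kilobase. In this group the ranges of the 3 libraries did not overlap between any neighbours in the order. In AHR siRNA cells TXNIP stood at 80.4 ± 1.92 CPM per kilobase, above TXNRD1 at 71.2 ± 2.60 (SD, n = 3 each). The order of this pair depends on the length: with the longest transcript, TXNIP was at 99.6 and TXNRD1 at 112 CPM per kilobase, and in control cells MLX came before ARRDC1 while MLXIPL and ARRDC4 overlapped. With the exon union, the lower end of the AHR siRNA order, from MLXIP through MLXIPL, ARRDC4, ARRDC3 and ARRDC2, was a chain of overlapping neighbours. With the longest transcript ARRDC3 came before ARRDC4, and the chain broke between MLXIPL and ARRDC3 and between ARRDC4 and ARRDC2.

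The alpha-arrestin transcripts as a family differed in amount and in composition between the groups. Summed over TXNIP, ARRDC1 to ARRDC4 and ARRDC5, a further family member that is close to silent here, the level was 51.5 ± 0.757 CPM per kilobase in control siRNA and 120.0 ± 3.06 CPM per kilobase in AHR siRNA cells (SD, n = 3 each). TXNIP made up 30.1%, 29.9% and 26.6% of this sum with control siRNA against 68.9%, 65.6% and 66.6% with AHR siRNA. ARRDC1, the largest part in control cells at 44.4%, made up 18.9% in AHR siRNA cells. The share of ARRDC3 was 5.00% and 4.77%, so its higher level went with the larger sum. With the longest transcript as the length, the TXNIP share was 29.9% and 68.3%.

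**Figure D4:**
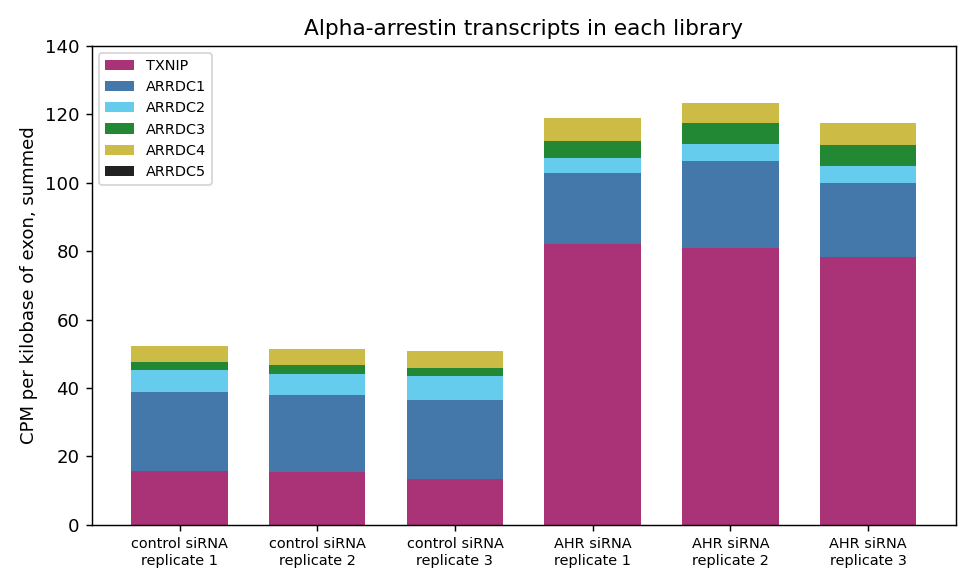
Stacked levels of TXNIP and ARRDC1 to ARRDC5 in each library, in CPM per kilobase of exon. The total lies between 50.7 and 52.2 with control siRNA and between 118 and 123 with AHR siRNA, and TXNIP makes up 28.9% and 67.0% of it in the mean.

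The balance between partners also differed. TXNIP transcripts per TXN transcript, per length, were 0.0315, 0.0378 and 0.0331 with control siRNA against 0.274, 0.274 and 0.296 with AHR siRNA. TXN thus stayed the more abundant transcript of the pair in every library. MLXIPL per MLXIP was 0.418, 0.459 and 0.345 with control siRNA against 0.871, 1.02 and 0.850 with AHR siRNA. How near ChREBP transcripts came to the level of MondoA transcripts depends on the length. With the longest transcript the ratio was 0.372, 0.409 and 0.307 with control siRNA against 0.776, 0.907 and 0.757 with AHR siRNA. TXNRD1 per TXN was 0.265 ± 0.035 and 0.249 ± 0.018 (SD, n = 3 each), with overlapping groups. These ratios come from the same contrast as the members and are likewise descriptive.

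Genes with a pattern like that of TXNIP were ranked by the root mean square difference in log2 CPM over the 6 libraries, after centring each gene on its mean. Among 10878 genes with a symbol and a mean of at least 5 CPM, the nearest was FOSB, an immediate early AP-1 gene, at a difference of 0.104, followed by PBXIP1 at 0.118, the serine dehydratase-like gene SDSL at 0.124, the myosin gene MYH7B at 0.173 and FAM227A at 0.174. PBXIP1 was the most abundant of these, at 21.8, 21.3 and 18.4 CPM with control siRNA against 131, 135 and 130 CPM with AHR siRNA. FOSB, SDSL, MYH7B and FAM227A had control means of only 1.47, 2.10, 2.31 and 3.53 CPM. These 4 genes thus reached the mean of 5 CPM only through the AHR siRNA group. At such low levels the 0.5 CPM added before taking log2 shrinks their differences. Among the members ARRDC3 came nearest to TXNIP, at place 305, with MLXIPL at place 364 and ARRDC4 at place 1838. The measure compares 2 groups of 3 libraries and so ranks mainly the size of the group difference.

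The other genes of the pathway were taken from 6 lists made by known role, with 85 genes of which 71 were tested. Of these, 24 were higher, 32 lower and 15 not called, beside 30.0% higher and 30.1% lower among all tested genes, and the median log2 fold change was -0.16 against 0.0065 over all tested genes. These lists, too, were made with results of this contrast known, so the p-values below, from the fit over all 14900 genes, set each difference against the spread between libraries and are no independent evidence for a list.

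Genes known as targets of MondoA or ChREBP were called in both directions. TXNIP and ARRDC4, both called higher, were counted as members and are not on this list. Of 17 listed genes 12 were tested, and 5 were higher (ACACA, FASN, SCD, GPD1 and RGS16) and 7 lower. Their median log2 fold change was -0.38, and 30.0% of all tested genes were higher and 30.1% lower. Of the higher calls, that of ACACA was lost in 2, GPD1 in 4 and FASN in 1 of 14 alternative fits, and the 7 lower calls held in all 14. KLF10, a zinc finger repressor gene, fell from 89.8 ± 1.33 to 42.1 ± 1.83 CPM (SD, n = 3 each; log2 fold change -1.09, SE 0.07, edgeR adjusted p = 1.81e-10). KHK, the fructose kinase gene, fell to 53.1% of control, the fatty acid elongase gene ELOVL6 to 57.3%, the hexokinase gene HK2 to 62.1% and the lipase gene PNPLA3 to 63.5%. PNPLA3 reached the 5 CPM required for naming only with control siRNA, at 5.76 CPM against 3.66 CPM with AHR siRNA. RGS16, a regulator of G protein signalling, rose to 152% of control (log2 fold change 0.61, SE 0.12, edgeR adjusted p = 0.000161). FASN, the fatty acid synthase gene and the most abundant of the list, rose from 826 ± 56.96 to 1013 ± 119.9 CPM (SD, n = 3 each; edgeR adjusted p = 0.00508), and without AHR siRNA replicate 2 it was not called (edgeR adjusted p = 0.0507). Of the listed targets, 11 had an upstream window, and among these only PKLR, the liver pyruvate kinase gene, held the spaced form. PKLR was not tested, at a mean of 0.0256 CPM with control siRNA (1 count in 1 library) and no count with AHR siRNA. It is named after its value was seen.

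Partners of MLX and the wider MAX network had more higher than lower calls. Of 10 genes 6 were higher, 1 was lower and 3 were not called, with a median log2 fold change of 0.33. Among all tested genes 30.0% were higher and 30.1% lower. MNT, named after its value was seen, was called higher although its groups overlapped. MXD4, a repressor that can pair with MAX or MLX, rose from 20.8 ± 2.597 to 77.7 ± 4.99 CPM (SD, n = 3 each; log2 fold change 1.90, SE 0.09, edgeR adjusted p = 4.37e-12). MXD1, another such repressor, rose to 190.1% of control and MXI1 to 159.9%. Of the 9 genes of this list with an upstream window, only MXI1 held the spaced form. The MYC family gene MYCL rose to 327% of control from 5.77 CPM, and MYC, the most abundant of the list, to 126% from 374 CPM. The lower gene was MYCN, which was singled out after seeing its value, at 2.13 and 0.956 CPM.

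The thioredoxin, glutaredoxin and peroxiredoxin genes had more lower than higher calls. Of 21 tested genes 10 were lower, 4 higher and 7 not called, beside 30.1% lower and 30.0% higher among all tested genes. The median log2 fold change of the list was -0.17. The higher calls of TXNRD3 and PRDX4 were lost in 4 of 14 alternative fits each, and the lower calls of GLRX and PRDX2 in 4 and 1. PRDX3, a mitochondrial peroxiredoxin gene, fell from 235 ± 13.5 to 142 ± 8.92 CPM (SD, n = 3 each; log2 fold change -0.72, SE 0.07, edgeR adjusted p = 4.52e-08). PRDX1, the most abundant of the list and a substrate of thioredoxin, fell to 72.3% of control, GLRX3 to 65.8%, and MAP3K5, which encodes the kinase ASK1 that thioredoxin binds and restrains, to 55.5%. MSRB2, a mitochondrial methionine sulfoxide reductase gene, rose from 4.97 ± 0.701 to 14.1 ± 2.08 CPM (SD, n = 3 each; log2 fold change 1.502, SE 0.15, edgeR adjusted p = 6.90e-08). MSRB2 reached the 5 CPM required for naming only through the AHR siRNA group. The mitochondrial counterparts of the members, named after their values were seen, differed from them: TXN2 was 164 ± 19.1 and 169 ± 7.95 CPM and not called (SD, n = 3 each; edgeR adjusted p = 0.681), and TXNRD2 rose to 148% of control.

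**Figure D5:**
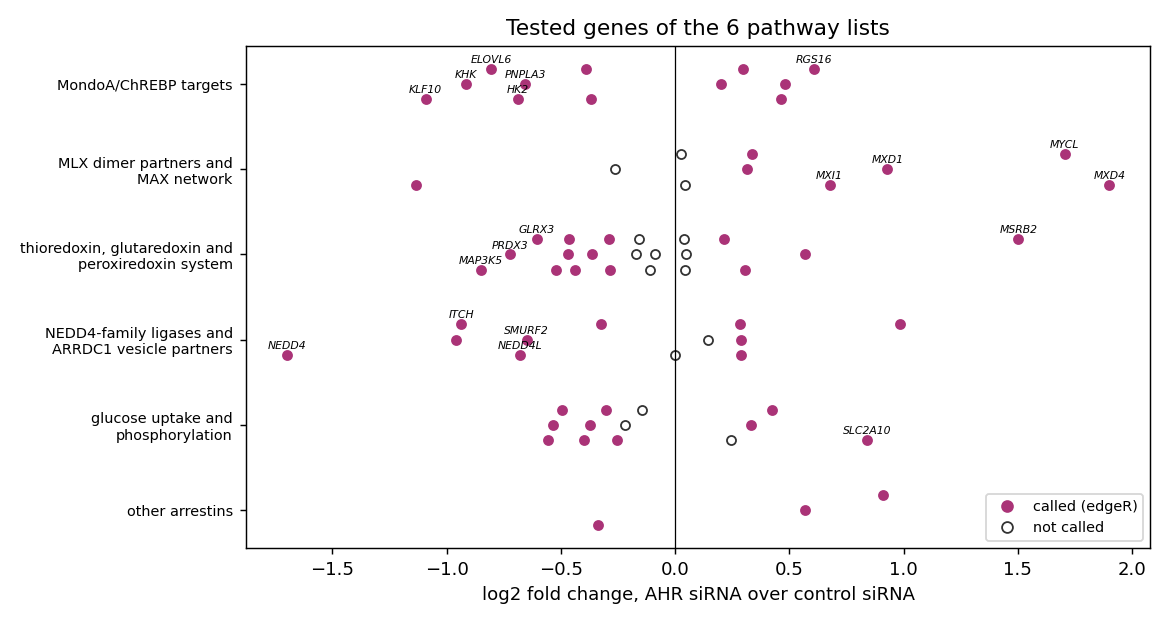
Log2 fold change of AHR siRNA over control siRNA for each tested gene of the 6 pathway lists, with filled points for called genes and names for the called genes that changed at least 1.5-fold with a mean of at least 5 CPM in either group. NEDD4 lies furthest to the left at -1.70 and MXD4 furthest to the right at 1.90.

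The ubiquitin ligases that alpha-arrestins recruit were listed together with genes of ARRDC1 vesicles. Of these 12 genes 6 were lower, 4 higher and 2 not called, beside 30.1% lower and 30.0% higher among all tested genes. The median log2 fold change of the list was -0.16. The higher call of HECW1 was lost in 3 of 14 alternative fits. NEDD4, the founding ligase of the family, was 37.5, 44.0 and 41.8 CPM with control siRNA against 12.4, 12.1 and 13.4 CPM with AHR siRNA. It fell in all 3 libraries to 30.8% of control (log2 fold change -1.70, SE 0.10, edgeR adjusted p = 3.01e-11). ITCH, a ligase known to mark TXNIP for degradation, fell from 78.2 ± 6.39 to 40.9 ± 4.36 CPM, or 52.3% of control (SD, n = 3 each; edgeR adjusted p = 2.29e-08). NEDD4L, the most abundant of the list, fell to 62.5% and SMURF2 to 63.7%. TSG101, which ARRDC1 recruits to form vesicles and which is named after its value was seen, rose to 122% of control.

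Of 13 tested genes of glucose uptake and phosphorylation 7 were lower, 3 higher and 3 not called. Among all tested genes 30.1% were lower and 30.0% higher. The median log2 fold change of the list was -0.25. The lower calls of SLC2A3 and SLC37A4 were lost in 1 and 4 of 14 alternative fits. GPI, the glucose-6-phosphate isomerase gene and the most abundant of the list over all libraries, fell from 706 ± 32.99 to 535 ± 13.1 CPM (SD, n = 3 each; log2 fold change -0.40, SE 0.07, edgeR adjusted p = 3.52e-05). SLC2A1, which encodes the transporter GLUT1 that TXNIP helps to remove from the membrane, was named after its value was seen and fell from 720.3 ± 19.6 to 511 ± 16.03 CPM, or 70.9% of control (SD, n = 3 each; edgeR adjusted p = 2.33e-06). SLC2A10 rose to 180% of control from 4.66 CPM. Its mean reached the 5 CPM required for naming only with AHR siRNA, at 8.40 CPM. Of the other arrestins, 3 of 5 were tested, of which 2 were higher and 1 lower. ARRB1, the beta-arrestin 1 gene and the most abundant, rose from 52.7 ± 2.401 to 78.2 ± 3.87 CPM, or 148% of control (SD, n = 3 each; edgeR adjusted p = 1.49e-06). ARRB2, the other beta-arrestin gene, was named after its value was seen and fell to 79.2% of control (log2 fold change -0.34, SE 0.08, edgeR adjusted p = 0.000882). The higher call of ARR3, a cone photoreceptor arrestin gene, was lost without control siRNA replicate 2 (edgeR adjusted p = 0.0513).

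The E-box-like words shown for TXNIP and ARRDC4 were found upstream of genes of both directions. Of 10723 tested genes with an upstream window in the RefSeq table, 30.7% were higher and 32.7% lower. Their median log2 fold change was -0.008. Of the 4682 with the single word CACGNG, 30.3% were higher and 34.8% lower, with a median log2 fold change of -0.030. Of the 92 with the spaced form, 34.8% were higher and 35.9% lower, with a median log2 fold change of 0.014, and of the 1185 with CACGTG, 31.3% were higher and 33.9% lower. Of the 848 with TNGCGTG, 30.1% were higher and 33.8% lower. These shares are given beside those of all genes with a window, as a description without a test.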

How the data were processed

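RNA of 6 DLD-1 samples was analysed, 3 with control siRNA and 3 with AHR siRNA, grouped by sample title. The authors deposited raw counts per versioned Ensembl gene, with no header and no rows for reads without a gene. Total RNA was extracted with Trizol, per the labels' protocols. TopHat2 2.0.11, TopHat and HTSeq and the builds hg19 and GRCh37 are named without roles, per the submitters' processing notes. Of 60483 identifiers, 41124 had a symbol in the name table. Positions and exon lengths are from GENCODE 29, matched by identifier, and may differ from the annotation counted.

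Counts were tested with edgeR 4.0.16 in R 4.3.3 (filterByExpr, TMM, glmQLFit and glmQLFTest, group as the only term), with Benjamini-Hochberg adjustment over 14900 genes and a threshold of 0.05. CPM were scaled to TMM-adjusted sums of tested genes. The SE is the log2 fold change divided by the square root of F. The code was tested on simulated data, with far fewer changed genes than were called here and no library that stood apart. Likeness used log2 of CPM plus 0.5. Members and lists were chosen with earlier results of these data known. Named pathway genes were called, reached 5 CPM in either group and changed at least 1.5-fold (up to 6 per list), plus the most abundant of each list; others are marked in the text. Alternatives were DESeq2 size factors, upper-quartile factors, library totals, other filters, a replicate block, the DESeq2 1.42.0 Wald test, limma-voom (limma 3.58.1), a threshold of 0.01, and each library left out.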

Additional observations from a re-analysis of the deposited data

How the results depend on the processing

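The 8 called members kept direction and call under all 14 alternative fits and at an adjusted p under 0.01. TXNIP ran from 2.36 to 2.58 on the log2 scale. Members not called changed sign without being called: ARRDC1 was 0.0721 with upper-quartile factors, 0.14 with library totals alone, 0.0005 with at least 1 CPM in 3 samples and -0.096 to 0.0438 with 1 library left out (highest without AHR siRNA replicate 1, also above 0 without AHR siRNA replicate 3). MLXIP was 0.0059 with upper-quartile factors, 0.0744 with library totals alone and -0.1405 to 0.0127 with 1 library left out (highest without AHR siRNA replicate 1). The cause was not tested. Called pathway genes numbered 49 to 57 and called genes 7298 to 9598 over the alternatives.

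The labels do not say whether replicate numbers pair the samples, and this could not be decided here. Same-numbered libraries had correlations of their deviations from the group mean of 0.406, -0.103 and 0.355 over 11031 genes. With 3 libraries per group the deviations depend on one another, and control siRNA replicate 1 stood apart, so these values cannot exclude pairing. With a replicate block 9598 genes, 8 members and 57 pathway genes were called, and not every library correlated best with its own number. Without the block 8953 genes were called. The SE of TXNIP was 0.0585 with the block and 0.0736 without it. With the longest transcript as the length, control levels per kilobase of 9 members moved by more than 1 SD.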
